A study of Oryza sativa with 6 samples.

Results

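The loci described here are the 118 loci of the rice N22 transcriptome that were reconstructed without a reference genome, out of 13343 loci in all. They were chosen by the form of their identifiers alone: every isoform model whose identifier lacks the semicolon that TAMA writes was taken, which gave 126 of 18913 models. TAMA is the tool that collapsed redundant long reads on the basis of their position in a reference genome, and transcripts that could not be placed there were collapsed with cogent, which builds its own coding sequence from the reads. The identifiers fell into 13 loci with a PB number, which held 21 models, and 105 transcripts that each stood as a locus of their own. No gene names come with these identifiers in the files, so the loci are called by their identifiers and no function is given for them.

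The RNA-Seq libraries represent seeds of *Oryza sativa* N22, a cultivar of the aus subgroup, that were still developing on plants grown in the field in the Philippines in the dry season. Stress plants were exposed to heat and drought together at early grain filling, with rain kept off by a shelter, and control plants of the same cultivar stood in flooded plots. Each condition had 3 libraries, which the methods of the study name as biological replicates, although how many plants or plots went into each is not given in the sources used here. Each seed library was a bulk sample, so fewer cells of a type and less RNA per cell cannot be told apart, and the tissue could not be checked against marker genes because no locus carries a gene name.

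Rice seeds at grain filling consist of the starch-filling endosperm, the embryo and the maternal tissues around them, and heat and drought at this stage are known to disturb starch and storage protein deposition. The reference genome used for N22 was an assembly of N22 itself, so these transcripts are ones that were not placed on the genome of their own cultivar. Cogent groups related long reads into a family and lays each family out as 1 or more paths, and models on the same path are parts of 1 reconstructed sequence. The identifiers of PB.12 and PB.13 name a single transcript in place of a path, and loci without a PB number name no path either.

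The assigned counts per library ranged from 20623931 to 21347918 in stress and from 22552927 to 24624992 in control. The 118 loci held 0.0442%, 0.0435% and 0.0337% of the counts in stress replicates 1, 2 and 3, against 0.0426%, 0.0393% and 0.0410% in control replicates 1, 2 and 3. On average these shares were 0.0405% ± 0.00587 in stress and 0.0410% ± 0.00167 in control (SD, n = 3 each), and the 2 conditions overlapped. For stress replicate 1, the Wilson 95% interval was 0.0433% to 0.0451%, which covers counting error only. Stress replicate 3 stood apart from the other stress libraries in these loci. Of the 65 loci that had enough counts to be tested, 42 (64.6%) had their lowest stress value in replicate 3, compared with 36.5% of the tested TAMA loci, and 40 (61.5%) had their highest stress value in replicate 1, compared with 38.2%. Among control libraries, replicate 3 was the lowest in 35 of the 65 loci (53.8%), against 37.4% of the TAMA loci.

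The loci were short. The median over the loci, each taken at its longest model, was 791 bp (quartiles 404.5 and 1250.75 bp), whereas the median of the 13225 TAMA loci was 1383 bp. The 13 PB loci had a median of 1391 bp and the 105 single transcripts one of 729 bp. The longest was transcript/1886 with 2590 bp, which held 8, 0 and 0 counts in the stress libraries and 1, 2 and 7 in the control libraries. The shortest were transcript/56398 and transcript/56400 with 62 bp each, and both were at 0 in every library. These lengths describe a single transcriptome and have no replicate error.

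Detection followed length at the short end. Of the 118 loci, 19 (16.1%) were at 0 in all 6 libraries, compared with 1.08% of all loci, and their median length was 80 bp. In 105 of the 126 models the deposited effective length was 149 bp below the full length, as a fragment length of 150 bp in the quantification would give. How that length was set is not stated in the sources used here, and the reads were single-end. Of the 15 loci shorter than 150 bp, 14 were at 0 everywhere, and PB.9 with 117 bp was the exception. Of the 103 longer loci, 5 were at 0 everywhere, namely transcript/7421 (1855 bp), PB.13 (1250 bp), transcript/28302 (1004 bp), transcript/46473 (519 bp) and transcript/51666 (342 bp). A count of 0 allows up to 3 counts, which was 0.159 to 0.168 CPM in stress and 0.108 to 0.111 CPM in control libraries (CPM, counts relative to the library total, scaled with TMM factors).

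**Figure D1:**
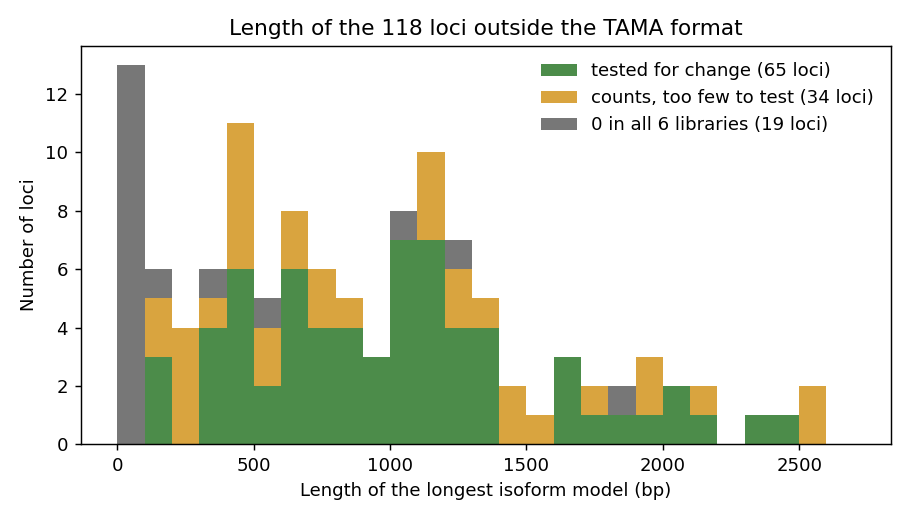
Stacked histogram of the length of the longest model (bp, bins of 100 bp) of the 118 loci. Colours separate the 65 tested loci, the 34 loci with counts but too few to test and the 19 loci at 0 in all 6 libraries, whose bars lie mostly at the far left.

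At least 1 count was present in all 3 stress libraries for 84 loci (71.2%, against 96.3% of all loci) and in all 3 control libraries for 75 loci (63.6%, against 97.1%). In all 6 libraries, 72 loci (61.0%) were detected, compared with 96.0% of all loci. By library, between 88 and 93 of the 118 loci were detected in stress and between 83 and 89 in control, and these ranges overlapped. With a minimum of 10 counts, 45 loci remained in all 3 stress libraries and 46 in all 3 control libraries. Counts in stress libraries alone were found for 3 loci (2.54%, against 0.217% of all loci) and in control libraries alone for 3 loci (2.54%, against 0.719%), and all but 2 of these 6 held at most 6 counts in total.

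Abundance was low at every length. The median TPM of a locus, which is corrected for length, was 1.06 over the 6 libraries, against 14.1 for all loci. All 3 libraries of at least 1 condition reached a TPM of 1 in 42 loci (35.6%), compared with 93.0% of all loci. Among loci under 500 bp, the median TPM was 0.468 for 40 of these loci and 11.6 for 441 TAMA loci. Within loci of 500 to under 1000 bp, the median TPM was 1.49 for 27 of these loci and 15.3 for 3070 TAMA loci. Within loci of 1000 to under 1500 bp, it was 1.12 for 32 loci and 13.2 for 3972 TAMA loci, and from 1500 bp it was 0.658 for 19 loci and 14.8 for 5742 TAMA loci. These length classes were chosen after the values were seen, and the lower TPM of the loci outside the TAMA format held in each of them.

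None of the 118 loci reached a mean of 1000 CPM, so none was left out for its abundance. The highest was PB.7 with 85.0 CPM, followed by PB.4 with 54.2 CPM, and 107 of all 13343 loci lay at or above 1000 CPM. A mean of at least 10 CPM was reached by 10 loci (8.47%). Together these 10 loci held 72.1% of the counts of the 118 loci, and PB.7 alone held 20.9%.

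PB.7 (3 models, longest 2151 bp) had 1825, 1529 and 1699 counts in stress replicates 1, 2 and 3, against 2361, 2047 and 2007 in the control replicates. After scaling this was 91.4 ± 10.5 CPM in stress and 78.6 ± 7.90 CPM in control (SD, n = 3 each), and the conditions overlapped (log2 fold change 0.22, SE 0.13, adjusted p = 0.238). PB.4 (3 models, longest 2445 bp) had 1051, 953 and 1071 counts in stress and 1466, 1425 and 1420 in control. Its mean was 55.5 ± 4.43 CPM in stress and 52.8 ± 1.59 CPM in control (SD, n = 3 each), with overlapping libraries (log2 fold change 0.07, SE 0.11, adjusted p = 0.663).

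PB.6 (1 model, 1093 bp) had 845, 964 and 867 counts in stress, against 1069, 869 and 1077 in control. Its 3 stress libraries all lay above the 3 control libraries after scaling, with 48.3 ± 2.47 CPM against 37.0 ± 4.94 CPM (SD, n = 3 each). The log2 fold change of 0.38 (SE 0.13, adjusted p = 0.0416) was below the minimum of 1 that a call required. The direction of this difference turned with limma on log2(TPM + 1), which carries no TMM factor, to -0.09. With library size alone in place of TMM factors, the log2 fold change of PB.6 was 0.0021 (edgeR, adjusted p = 0.990).

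The shortest of the abundant loci was transcript/56077 with 153 bp. Its counts of 396, 469 and 524 in stress and 500, 526 and 450 in control lay on only 21.8 bp of effective length. Its TPM was therefore the highest of the 118 loci, 913 ± 181 in stress and 911 ± 29.2 in control (SD, n = 3 each). That was the larger part of the TPM summed over all 118 loci, which was 1467 ± 221 in stress and 1628 ± 159 in control. In TMM-scaled CPM the same locus was 25.0 ± 2.98 in stress and 18.1 ± 1.21 in control, without overlap (log2 fold change 0.47, SE 0.13, adjusted p = 0.0229). On the TPM scale, however, the conditions differed by less than the spread between replicates. With library size alone in place of TMM factors, its log2 fold change was 0.095 (edgeR, adjusted p = 0.599).

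transcript/7454 (1851 bp) had 921, 660 and 447 counts in stress, against 1010, 475 and 661 in control, which was 36.8 ± 13.8 CPM and 26.4 ± 10.3 CPM (SD, n = 3 each, adjusted p = 0.340). transcript/20678 (1251 bp), transcript/20147 (1262 bp), PB.3 (769 bp) and PB.1 (1664 bp) averaged between 11.0 and 16.2 CPM in stress and between 10.2 and 14.9 CPM in control. Their conditions overlapped, and their log2 fold changes ranged from -0.32 for transcript/20147 to 0.20 for PB.3. PB.10 was the only abundant locus with a fold change past the minimum and is described below.

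**Figure D2:**
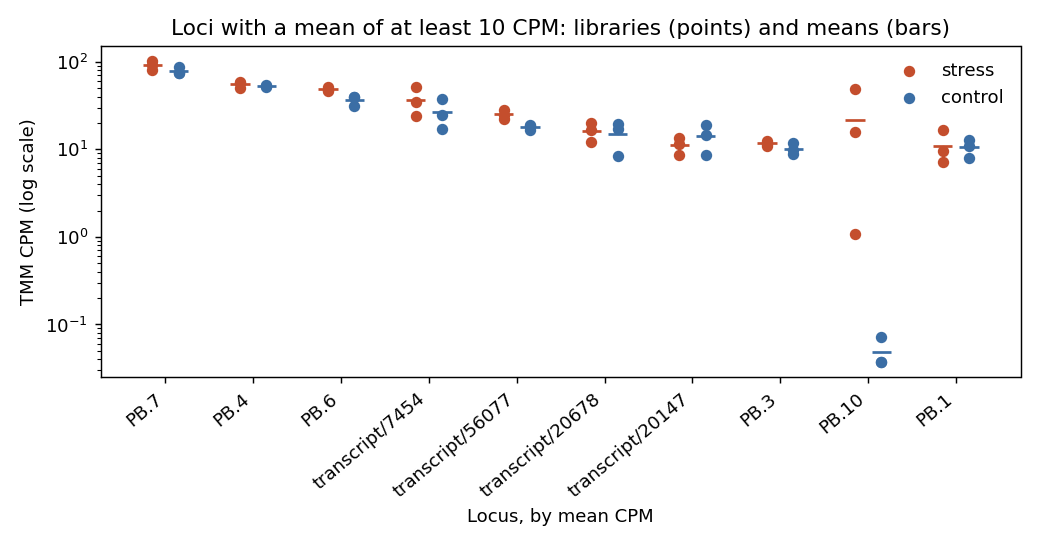
TMM-scaled CPM (log scale) of the 10 loci with a mean of at least 10 CPM, with stress libraries (left, red) and control libraries (right, blue) as points and their means as bars. The 3 stress libraries lie above the 3 control libraries in PB.6, transcript/56077 and PB.10, and PB.10 spreads widest within stress.

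Of the 118 loci, 65 (55.1%) passed the filter on low counts and were tested, compared with 95.4% of all loci. A locus passed when about 10 counts were reached in at least 3 libraries, so a locus near 0 in one condition entered the test only if the other was high. A locus was called where the adjusted p was under 0.1 (edgeR, Benjamini-Hochberg over all 12726 loci tested) and the log2 fold change was 1 or more in size. By this rule, 7 of the 65 loci changed under stress (10.8%), where the share among all tested loci was 10%. Of these, 5 rose (7.69%, against 4.8% of all tested loci) and 2 fell (3.08%, against 5.23%). With the adjusted p alone, 11 of the 65 passed, and the share among all tested loci was 38.6%. The 3 stress libraries lay above the 3 control libraries in 9 loci (13.8%, against 23.1% of all tested loci) and below them in 1 locus (1.54%, against 22.6%).

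The number of calls rested in part on stress replicate 3. Without it, 18 loci of 73 tested were called, 16 of them higher and 2 lower, where 12.3% of all tested loci were called, 5.97% higher and 6.29% lower. All 7 calls were among these 18. The median log2 fold change of the 65 loci was 0.38, against -0.02 for all tested loci, and 47 of the 65 (72.3%) had a positive value, compared with 48.2% of all tested loci. With library size alone in place of TMM factors, both medians moved down together, to 0.01 for the 65 loci and to -0.40 for all loci. The number of positive values thus depends on the scaling, whereas the distance between both medians was similar under either.

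**Figure D3:**
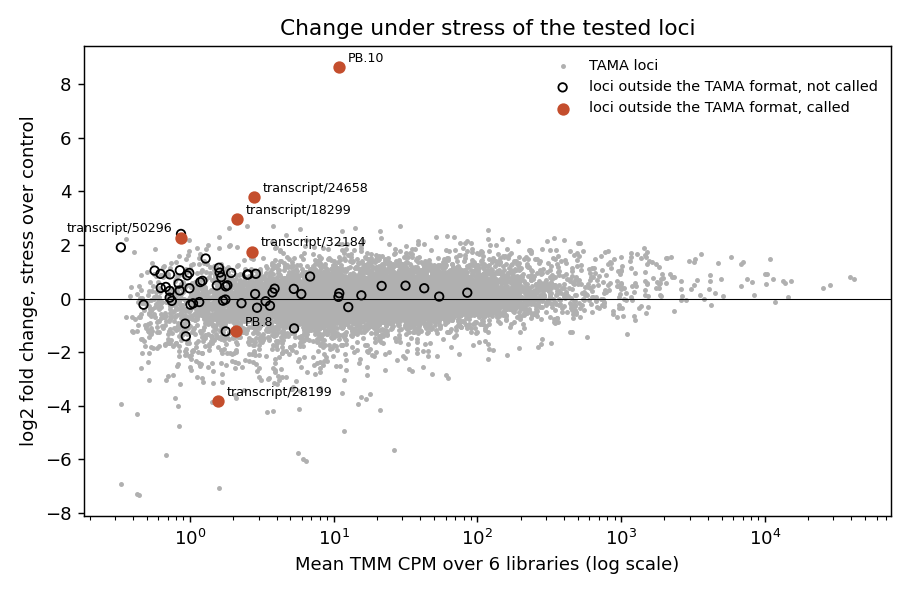
Log2 fold change (stress over control) against mean TMM-scaled CPM over 6 libraries (log scale). Grey points are tested TAMA loci, open circles the 58 tested loci outside the TAMA format that were not called and red points the 7 that were, with PB.10 at 8.64 and transcript/28199 at -3.85.

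The largest difference among the 65 tested loci was found for PB.10, a locus of 2 models with 2073 bp. It had 282, 912 and 20 counts in stress replicates 1, 2 and 3, against 1, 2 and 1 in the control replicates. PB.10 passed the filter on low counts through its stress libraries alone, so its high value there was a condition of being tested. Every stress library was above every control library, but replicate 2 alone held 74.2% of the scaled stress signal. The locus averaged 21.7 ± 24.2 CPM in stress and 0.0487 ± 0.0201 CPM in control (SD, n = 3 each). Summed over libraries, the ratio was 447 (exact 95% interval 174 to 1644, counting error only), and the fitted log2 fold change was 8.64 (SE 1.86, adjusted p = 0.0182), a value that depends on how the fit treats counts this close to 0. Nearly all of these counts fell on the longer model PB.10.1, with 282, 909 and 20 in stress and 0, 2 and 1 in control. Without control replicate 3 the adjusted p was 0.124, and without stress replicate 2 the log2 fold change was 7.28 (adjusted p = 0.0147).

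transcript/24658 (1135 bp) showed the same order of stress libraries, with 103, 171 and 13 counts in stress and 5, 9 and 16 in control. Its control libraries alone would not have passed the filter on low counts, so higher stress values were a condition of being tested. In CPM the lowest stress library, replicate 3 with 0.697, was just above the highest control library with 0.593. The mean was 5.17 ± 4.21 CPM in stress and 0.368 ± 0.207 CPM in control (SD, n = 3 each). The log2 fold change was 3.79 (SE 0.88, adjusted p = 0.0152). It was called without each library in turn, at 3.11 without stress replicate 2.

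transcript/32184 (913 bp) was the most even of the loci that rose. It had 70, 89 and 72 counts in stress, against 36, 34 and 31 in control, which was 4.16 ± 0.480 CPM and 1.24 ± 0.0947 CPM (SD, n = 3 each). The conditions did not overlap, and the log2 fold change was 1.75 (SE 0.29, adjusted p = 0.00168). It stayed called without each library in turn, with log2 fold changes from 1.65 to 1.80. On the log2(TPM + 1) scale its difference of 0.93 was below the minimum.

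transcript/18299 (1331 bp) had 51, 145 and 14 counts in stress and 11, 24 and 4 in control. Here too the control libraries alone would not have passed the filter on low counts, so being tested depended on the stress values. Stress replicate 3 with 0.750 CPM lay below control replicate 2 with 0.864 CPM, so the conditions overlapped. The log2 fold change was 2.97 (SE 0.86, adjusted p = 0.0323). The call was lost without stress replicate 2 (log2 fold change 1.91, adjusted p = 0.109) and without control replicate 1 (adjusted p = 0.108), and without control replicate 2 the log2 fold change was 3.72.

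transcript/50296 (381 bp) had 22, 41 and 17 counts in stress, against 18, 3 and 3 in control. With its control libraries alone this locus would not have passed the filter on low counts, so being tested depended on the stress values. The stress libraries lay above the control libraries after scaling, with control replicate 1 the closest to them. The log2 fold change was 2.27 (SE 0.70, adjusted p = 0.0308). The call was lost without stress replicate 2 (1.84, adjusted p = 0.137) and without control replicate 2 (1.86, adjusted p = 0.101), and without control replicate 1 the log2 fold change was 3.64.

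The larger of both decreases was found for transcript/28199 (1024 bp). It had 2, 7 and 2 counts in stress, against 28, 173 and 40 in control, and was the only one of the 65 loci with all stress libraries below all control libraries. This locus passed the filter on low counts through its control libraries alone, so its high value there was a condition of being tested. The log2 fold change was -3.85 (SE 0.87, adjusted p = 0.0102). Control replicate 2 held 66.7% of the scaled signal over all libraries, and without it the log2 fold change was -2.64 (adjusted p = 0.0245). Without stress replicate 2 it was -4.67.

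PB.8 (2 models, longest 329 bp) had 13, 18 and 38 counts in stress and 54, 64 and 120 in control. Stress replicate 3 with 2.04 CPM slightly exceeded control replicate 1 with 2.01 CPM. The log2 fold change was -1.23 (SE 0.46, adjusted p = 0.0644), and the call was lost without control replicate 3 (-0.80, adjusted p = 0.264), without stress replicate 1 (-0.96, adjusted p = 0.194) and without stress replicate 2 (-1.07, adjusted p = 0.187). Its second model of 89 bp was at 0 in all libraries. PB.8 and PB.9 lie on the same cogent path, PB.8 at positions 1 to 318 and PB.9 at positions 399 to 514. PB.9 had 21, 70 and 53 counts in stress, against 101, 26 and 139 in control, and its log2 fold change of -0.34 (SE 0.59, adjusted p = 0.703) did not pass the test. The difference between both loci was not tested.

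**Figure D4:**
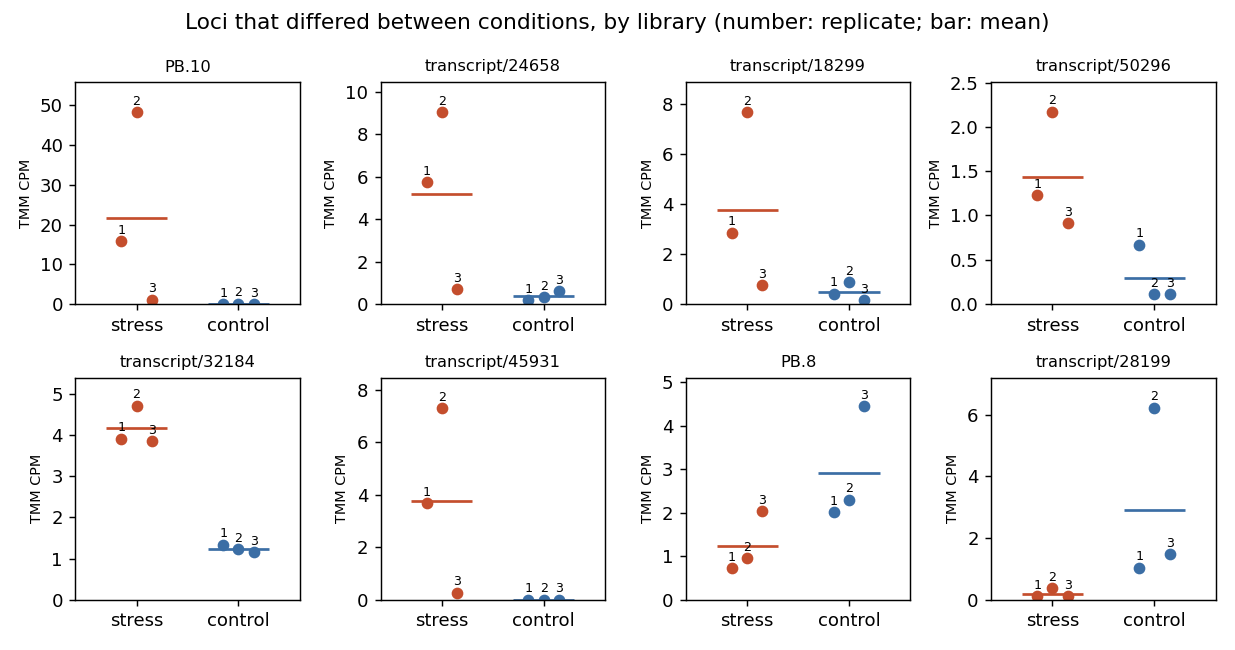
TMM-scaled CPM of the 7 called loci and of transcript/45931 in each library, stress (red) left of control (blue), with the replicate number above each point and the mean as a bar. Stress replicate 2 is the highest stress library in PB.10 and in transcripts 24658, 18299, 50296, 32184 and 45931, and replicate 3 is the lowest in all of these.

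Another 4 loci passed the adjusted p but not the minimum fold change. Besides PB.6 and transcript/56077, these were PB.12 (1682 bp), with 54, 47 and 40 counts in stress and 39, 34 and 34 in control (log2 fold change 0.96, SE 0.34, adjusted p = 0.0510), and transcript/23497 (1172 bp), with 75, 76 and 57 counts in stress and 72, 36 and 53 in control (log2 fold change 0.92, SE 0.33, adjusted p = 0.0533). In each of the 4, all stress libraries lay above all control libraries after scaling with TMM factors. With library size alone, PB.12 had a log2 fold change of 0.57 (edgeR, adjusted p = 0.178). For transcript/23497 the conditions overlapped with library size alone, where stress replicate 3 lay below control replicate 1.

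Among the 53 loci that were not tested, 1 was detected in every stress library and in no control library. This single locus was 0.847% of the 118 loci, against 0.0150% of all loci. It was transcript/45931 (522 bp), with 66, 138 and 5 counts in stress and 0 in each control library. The bound for control was 3 counts in the control library with the highest limit, 0.111 CPM. Its observed stress mean was 33.7 times this bound, and 17.7 times without stress replicate 2. The lowest stress library, replicate 3 with 5 counts, was 2.40 times the bound. These ratios take the stress counts as exact, so counting error in stress is not covered. No locus was detected in every control library and in no stress library (0% of the 118 loci, against 0.285% of all loci).

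The other untested loci with counts numbered 33 and had few of them. transcript/46834 (493 bp) had 125, 8 and 5 counts in stress and 3, 0 and 2 in control, so 1 library made up most of its signal. transcript/48097 (453 bp) had 24, 15 and 3 counts in stress, against 2, 0 and 0 in control. transcript/45308 (540 bp) had 4, 6 and 13 in stress and 3, 0 and 0 in control, and transcript/17394 (1365 bp) had 3, 4 and 14 in stress and 1, 2 and 2 in control. In the opposite direction, transcript/5650 (1980 bp) had 4, 5 and 2 counts in stress and 15, 18 and 8 in control, without overlap. When the filter on low counts was dropped, 99 loci were tested and 12 called, of which 10 were higher and 2 lower, where 4.74% of all loci were higher and 5.28% lower. The 5 added loci were transcript/45931 and the 4 with higher stress values named in this paragraph, with adjusted p-values between 0.0129 and 0.0823, and transcript/5650 was not called.

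The spread between replicates was wide in these loci. Among tested loci with a mean of 1 to 3 CPM, the median coefficient of variation between the 3 stress libraries was 58.6% for the 27 loci outside the TAMA format and 30.2% for 894 TAMA loci. Between the 3 control libraries it was 50.4% and 26.9% for the same loci. Counting alone would give a median of 16.2% in stress and 16.7% in control for the 27 loci. This range was chosen after the values were seen, and with 1 to 10 CPM the medians were 54.7% and 20.2% in stress and 41.0% and 18.0% in control (35 and 3649 loci). No test was made, since loci of 1 library are not independent replicates.

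**Figure D5:**
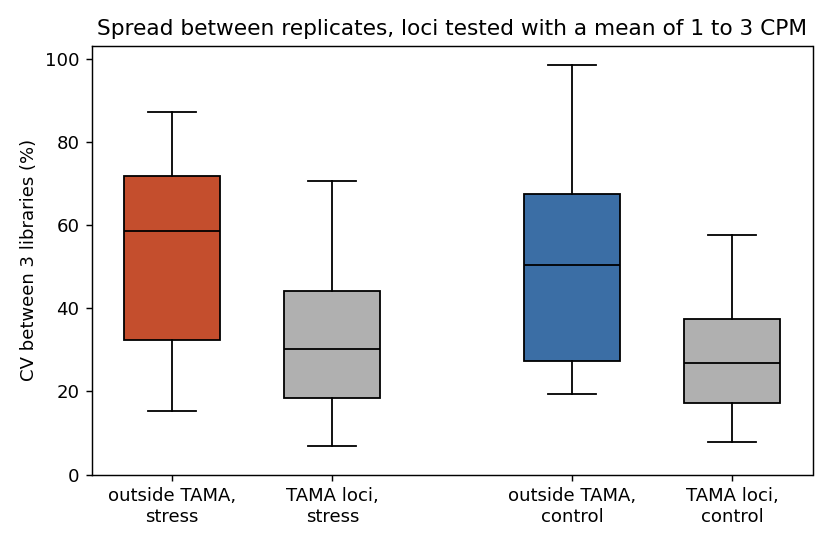
Coefficient of variation (%) between the 3 libraries of a condition for tested loci with a mean of 1 to 3 CPM, as boxes (median and quartiles) with whiskers at the 5th and 95th percentiles. The medians are 58.6% and 50.4% for the 27 loci outside the TAMA format (stress, control) and 30.2% and 26.9% for 894 TAMA loci.

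In several loci a single library held most of the signal. With a mean of 1 to 10 CPM, 5 of 35 tested loci (14.3%) had over 50% of their summed CPM in 1 library, compared with 14 of 3649 TAMA loci (0.384%). transcript/22561 (1188 bp) had 92, 55 and 37 counts in stress and 54, 8 and 525 in control. transcript/40199 (691 bp) had 16, 33 and 10 in stress and 13, 167 and 26 in control. In their other control libraries both lay within or below the range of the stress libraries, and neither passed the test (adjusted p = 0.558 and 0.351). The rest of these 5 were called loci. Control replicate 2 held 66.7% of the summed CPM of transcript/28199. Stress replicate 2 held 60.5% of that of transcript/18299 and 54.5% of that of transcript/24658. At a mean of under 1 CPM, transcript/49320 (412 bp) had 16, 1 and 11 counts in stress and 4, 108 and 1 in control. Among the untested loci, transcript/6618 (1939 bp) had 112, 6 and 6 counts in stress and 9, 11 and 9 in control, and transcript/43354 (606 bp) had 2, 57 and 0 in stress and 0 in control. The high library differed from locus to locus, with control replicates 2 and 3 and stress replicates 1 and 2 each represented.

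The kallisto counts of a locus are whole numbers when its reads were divided only among its own models. Of the 99 loci with counts, 93 (93.9%) were whole within 0.1 in all 6 libraries, compared with 90.2% of all loci with counts. The exceptions were PB.4, PB.6, PB.7, transcript/50631, transcript/53617 and transcript/55990. Summed, PB.4, PB.6 and PB.7 gave whole numbers in every library, 3721, 3446 and 3637 in stress and 4896, 4341 and 4504 in control. PB.6 and PB.7 belong to the same cogent family and PB.4 to another. The 3 single transcripts summed to 24, 16 and 16 counts in stress and 17, 29 and 12 in control, also whole. Within this sum, transcript/55990 (164 bp) had 12.6, 2.02 and 9.17 counts in stress and 17.0, 25.1 and 0 in control, and transcript/50631 (370 bp) had 11.4, 11.1 and 6.83 in stress and 0, 0 and 11.1 in control. The separate values of these 6 loci are thus estimates of how shared reads were split. The sums were looked for after the values were seen.

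Of the 6 PB loci with more than 1 model, PB.10 is described above and the other 5 had at least 10 counts in every library. The share of the leading model was compared between conditions with two-sided exact permutation tests, for which 0.1 is the smallest p that 3 libraries against 3 allow. In PB.5 (2 models, longest 1911 bp), the shorter model PB.5.2 took 46.3% ± 8.33 of the counts in stress and 63.9% ± 7.66 in control (SD, n = 3 each), without overlap (exact p = 0.1, adjusted p = 0.5 over 5 loci). PB.5 had only 40, 20 and 39 counts in stress and 47, 28 and 29 in control. In PB.4, model PB.4.2 took 64.9% ± 7.47 in stress and 71.1% ± 10.8 in control (exact p = 0.4, adjusted p = 1).

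In PB.2 (2 models, 1391 bp), the longer model took 92.0% ± 9.13 in stress and 90.2% ± 3.68 in control (SD, n = 3 each, exact p = 0.8). In PB.7, model PB.7.1 took 94.3% ± 1.03 in stress and 94.3% ± 1.96 in control (exact p = 1), and PB.7.2 with 1496 bp was at 0 in all libraries. In PB.8 all counts fell on the longer model in every library. None of the 5 comparisons passed the adjustment.

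Of the 13 PB loci, 12 were detected in all 6 libraries and tested, and 11 had at least 10 counts in every library. PB.13, a single transcript of 1250 bp, was the one at 0. The 105 single transcripts were weaker in counts, with 53 tested, of which 4 rose and 1 fell. Of the PB loci, 1 rose (PB.10) and 1 fell (PB.8). PB.11 (416 bp) had 135, 272 and 80 counts in stress and 135, 180 and 90 in control (log2 fold change 0.82, SE 0.42, adjusted p = 0.175), and without stress replicate 3 it passed both thresholds (1.15, adjusted p = 0.0295).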

How the data were processed

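RNA from developing seeds of N22 was sequenced by the authors from 3 stress and 3 control samples, and single-end reads of directional libraries were quantified with kallisto 0.45 against their PacBio transcriptome of N22. For every model and library, the authors deposited estimated counts and TPM values, with replicates kept apart, beside the model's length and effective length in bp. Before this, the authors had removed long-read sequences without similarity to green plants. Whether kallisto used the strand of the libraries is not given in the sources used here.

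Estimated counts were summed over the models of a locus and rounded to whole numbers. Stress was compared with control in 1 fit over all loci, by the quasi-likelihood test of edgeR 4.0.16 (R 4.3.3) with robust dispersions and TMM scaling and without a replicate block. Low loci were removed by filterByExpr (minimum count 10), and p-values were adjusted after Benjamini-Hochberg. Calls needed an adjusted p below 0.1 together with a log2 fold change of 1 or more in size. The SE of an edgeR log2 fold change was derived from the test. It is the size of the fold change divided by the square root of the quasi-likelihood F statistic. Levels are TMM-scaled CPM, or TPM where loci are compared with each other. A locus was detected in a library at 1 count or more. Intervals from counts cover counting error only, and p-values measure only the spread between these libraries. The scripts were tested on simulated counts.

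Loci were named by rule: those called, those with a mean of 10 to under 1000 CPM, those detected in every library of only one condition, PB loci with several models, and the longest and shortest. Further loci (PB.9, PB.11, PB.12, transcripts 46834, 48097, 45308, 17394, 5650, 22561, 40199, 49320, 6618, 43354, 23497, those at 0, and those sharing reads) were named after their values were seen. The members, lists and tests were chosen with earlier results of these data known. Sequences and annotations of the models were not analysed here. The alternatives were limma 3.58.1 on log2 TPM with 1 or 0.1 added, DESeq2 1.42.0, library size alone or RLE scaling, stricter and looser filters, no robust dispersions, glmTreat, no minimum fold change, a replicate block and leaving out each library.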

Additional observations from a re-analysis of the deposited data

How the results depend on the processing

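The count of 7 called loci, 5 higher and 2 lower, was 9 with DESeq2, 7 with RLE factors, 8 with library size only, 8 without robust dispersions, and 6 and 9 with limma on log2(TPM + 1) and log2(TPM + 0.1). It was 12 (10 higher) with no filter on low counts. When at least 10 counts were required in every library, it was 2 (1 higher, 1 lower), with 38 loci tested. The calls lost there were PB.10 and transcripts 18299, 24658, 28199 and 50296, which that filter removed before the test. Without a minimum fold change the count was 11 (9 higher). When edgeR's glmTreat tested against a log2 fold change of 1, the count was 0 higher and 0 lower, so 0 in all, with 6 of 65 loci at an unadjusted p under 0.05 and a lowest adjusted p of 0.143. Leaving out 1 library at a time gave 5 to 18 calls, 4 to 16 higher and 1 to 2 lower, with 18 reached without stress replicate 3. With the replicate number as a block, 9 loci were called (7 higher, 2 lower), and all 7 calls were kept. With this block the SE of PB.10 was 0.40, against 1.86 without it. Deviations of same-numbered libraries correlated with r of 0.173, 0.0291 and 0.243. Those of differently numbered libraries correlated with r from -0.249 to 0.123, the highest for stress replicate 1 and control replicate 2. The labels do not say whether a number marks a shared plot, so whether the libraries are paired cannot be told from the sources. At 10 counts, 45 loci were detected in all 3 stress and 46 in all 3 control libraries. The median effective length was 642 bp. Single loci reversed only where no call had been made. With library size only, the log2 fold changes were -0.32 for PB.1, -0.18 for PB.3, -0.31 for PB.4, -0.16 for PB.7 and -0.26 for transcript/20678. With limma on log2(TPM + 1) and log2(TPM + 0.1), they were -0.41 and -0.47 for PB.1, -0.26 and -0.27 for PB.3, -0.29 and -0.29 for PB.4, -0.16 and -0.25 for PB.5, -0.087 and -0.088 for PB.6, -0.25 and -0.26 for PB.7, -0.28 and -0.30 for transcript/20678, and -0.015 and -0.015 for transcript/56077. Leaving out 1 library gave -0.34 to 0.30 for PB.1, -0.79 to 0.13 for PB.9 and -0.18 to 0.34 for transcript/20678, and differences in isoform share of -2.17 to 6.81 percentage points for PB.2.1 and -1.19 to 0.647 for PB.7.1. The cause of these changes was not tested. At this depth, 53 of the 118 loci had too few counts to be tested, among them 14 of the 15 loci shorter than 150 bp.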
